A study of Mus musculus with 6 samples.

Results

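The genes described here are 40 regulators of the G1 phase of the cell cycle, taken by name from a table of 53801 mouse genes counted by RNA sequencing. They fall into 13 roles: D cyclins, E cyclins, the G1 kinases with the phosphatase Cdc25a, the CIP/KIP and INK4 inhibitors, the pocket proteins, activator E2Fs, repressor E2Fs, their DP partners, and the antiproliferative BTG/TOB, GADD45, cyclin G and FOXO genes. All 40 were found in the table, and 39 passed the filter on low counts. Only Cdkn2b did not, with 4 to 11 counts in each library. The genes were listed by name and role, with no threshold on a measured value.

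The samples were mouse fetal liver cells of day E12.5-13.5 from mice on a B6J.129(Cg) background with the Gt(ROSA)26Sortm1.1 allele of the line Fezh/J, which holds CAG-cas9*,-EGFP, that is, a CAG promoter driving Cas9 and EGFP. In both groups the cells carried a guide RNA against Gata1 (sgGata1; the labels call the cells Gata1s, the name of the short form of this blood transcription factor) and a transgene for the microRNA miR-125b, and received doxycycline at 1 μg/mL for 48 h. The groups differed in a further, doxycycline-inducible transgene, Arid3a-FLAG in 3 libraries and LUC in 3 libraries. Each library pooled the RNA of many cells, so a change in the number of cells of a type and a change in RNA per cell cannot be told apart. The labels do not say that the 3 libraries of a group came from separate animals or cultures, so the p-values measure the spread between these libraries, which may be technical.

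Cells commit to division in G1. D cyclins activate Cdk4 and Cdk6, E cyclins activate Cdk2, and these kinases phosphorylate the retinoblastoma family of pocket proteins, which otherwise hold E2F factors in a repressing state. CIP/KIP and INK4 proteins inhibit the kinases. In blood cells Ccnd2, Ccnd3 and Cdk6 are the D cyclins and the kinase most often described, and megakaryocytes, the platelet precursors, go on to copy their DNA without dividing.

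Library totals ran from 15730908 to 18249053 counts. Levels are given as CPM, the counts of a gene relative to the total of its library after TMM scaling. The Arid3a-FLAG construct had 2758 to 3348 counts in the Arid3a-FLAG libraries and 0 in each LUC library. The Arid3a gene itself had 9.22 to 15.9 CPM under LUC against 12.6 to 13.6 CPM under Arid3a-FLAG, and Gata1 had 264.2 to 318.7 and 320.5 to 332.5 CPM. LUC library 2 stood apart on the second principal component, at -31.1 against 16.8 and 19.3 for the other LUC libraries. It held the lowest of the 6 values in 12 of the 39 tested G1 genes and the highest in 5, while over all tested genes it was lowest in 25.8% and highest in 31.3%. Of 8 marker lists, the megakaryocyte list summed to 6422 to 7980 CPM under LUC against 6926 to 7382 CPM under Arid3a-FLAG, the mast and basophil list to 1792 to 2123 and 762.3 to 1334 CPM, the stem and progenitor list to 467.0 to 547.8 and 356.5 to 482.6 CPM, and the erythroid list to 207.6 to 264.5 and 293.3 to 381.9 CPM. The hepatocyte list summed to at most 26.3 CPM, nearly all of it Afp, and Ttr, Serpina1a, Apob and Hnf4a were at 0 in every library. The neutrophil and monocyte list summed to 30.4 to 31.4 under LUC and 26.6 to 39.2 CPM under Arid3a-FLAG (Ly6g at 0), the lymphoid list to 30.7 to 42.2 and 6.74 to 8.29 CPM (Cd8a and Ms4a1 at 0), and the endothelial and stromal list to 119.5 to 147.1 and 94.2 to 122.5 CPM (Cdh5, Col3a1 and Dcn at 0). Most of that last sum was Pecam1, at 102.4 to 128.8 CPM under LUC and 83.5 to 110.2 CPM under Arid3a-FLAG. In the megakaryocyte list Pf4 alone had 3288 to 4984 CPM under LUC and 2971 to 3282 CPM under Arid3a-FLAG.

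With Arid3a-FLAG, Btg2, Gadd45g and Rb1 rose and Cdk6 fell. These 4 of 39 tested genes (10.3%) passed an adjusted p of 0.05 in edgeR's quasi-likelihood test, against 7.29% of all 13631 tested genes (3.43% higher and 3.87% lower), so the share is near the background. DESeq2 and limma-voom called the same 4 genes, against 11.5% and 7.42% of all genes. Unadjusted p was under 0.05 in 11 of 39 (28.2%), against 25.6% of all. The groups did not overlap in 13 of the 39 genes, 10 higher and 3 lower. That is 33.3%, against 33.1% of all tested genes (16.6% higher and 16.5% lower). The median log2 fold change of the G1 genes was 0.12, beside -0.03 for all tested genes, and 28 of 39 (71.8%) lay above 0, beside 45.3% of all. The changes were small: the median size was 0.15 on the log2 scale, beside 0.20 for all tested genes, and no G1 gene reached a 2-fold difference. The numbers moved with single libraries. Without LUC library 2, 7 G1 genes were higher and 2 lower (23.1%, against 16.4% of all genes in that fit). Without LUC library 1 the count was 2 higher and 0 lower (3.09% of all genes), and without LUC library 3 it was 4 higher and 0 lower (7.57% of all genes). Without Arid3a-FLAG library 1 none passed (against 1.66% of all genes), and without library 2 or 3 only Btg2 did (2.11% and 4.05% of all genes).

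**Figure D1:**
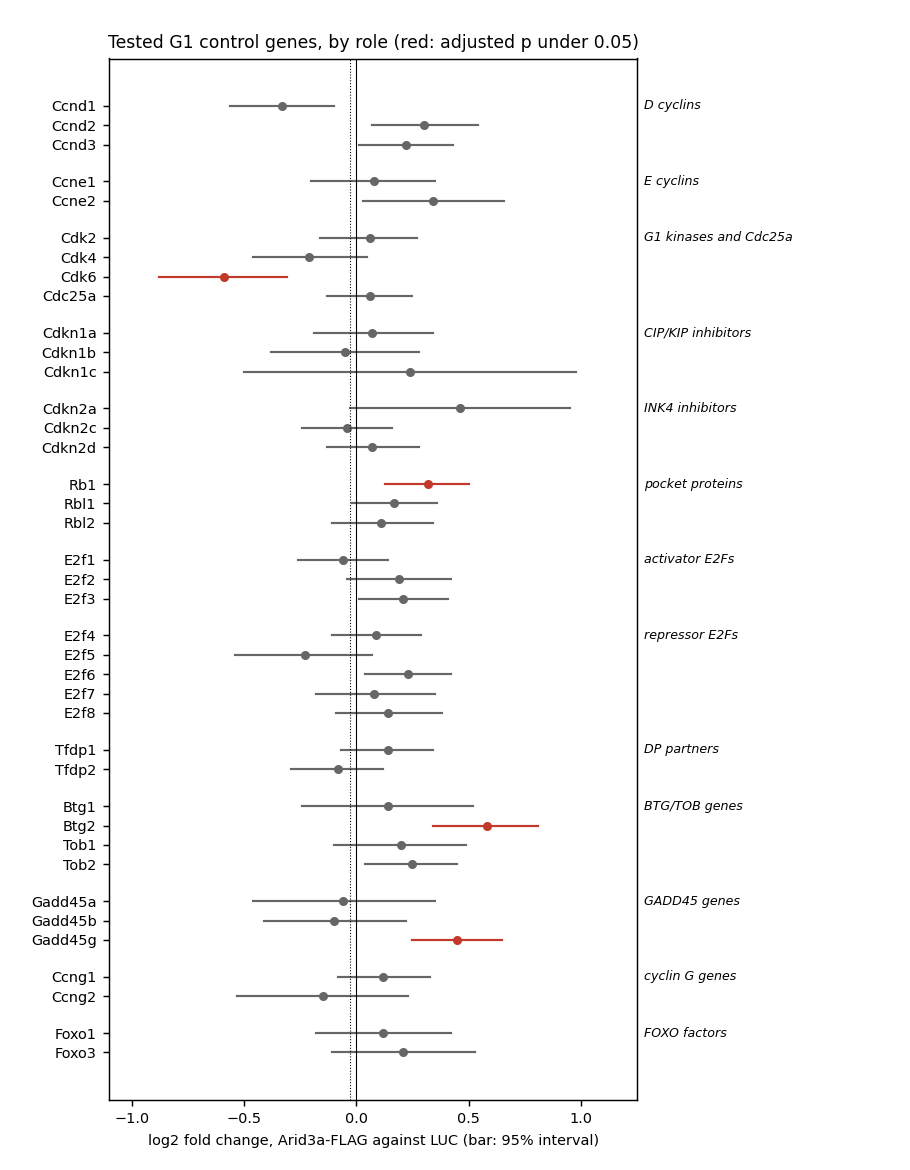
Log2 fold change of each tested G1 gene, Arid3a-FLAG against LUC, with its 95% interval from edgeR, ordered by role, with the median of all tested genes as a dotted line. Cdk6 (-0.59) lies to the left, and Rb1 (0.32), Gadd45g (0.45) and Btg2 (0.58) to the right, as the genes past an adjusted p of 0.05.

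The levels of the 40 genes per length, CPM divided by merged exon length in kb, spanned more than 2 orders of magnitude (the plot of levels by role). Cdk4 was highest, with a mean over the 6 libraries of 123.9 CPM per kb, followed by the INK4 inhibitor Cdkn2d at 100.4, the DP partner Tfdp1 at 83.4 and Ccnd3 at 76.0. At the other end stood Foxo1 at 2.14, Cdkn1c at 0.478 and Cdkn2b at 0.301 CPM per kb. Cdk4 stayed highest and these 3 lowest when the longest transcript replaced the merged exons, but Ccnd3 then came second, at 172.8 against 111.0 for Cdkn2d. Exons of 17 of the 40 genes overlap another gene, in every case on the opposite strand, and counting by strand is not stated. The share of exon length is 23.4% for Ccnd1 (with LTO1), 19.7% for Cdk4 (with Tspan31), 17.4% for Ccne2 (with Ints8) and 30.7% for Cdkn1c (with Gm44732), so reads of these pairs cannot be told apart there.

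**Figure D2:**
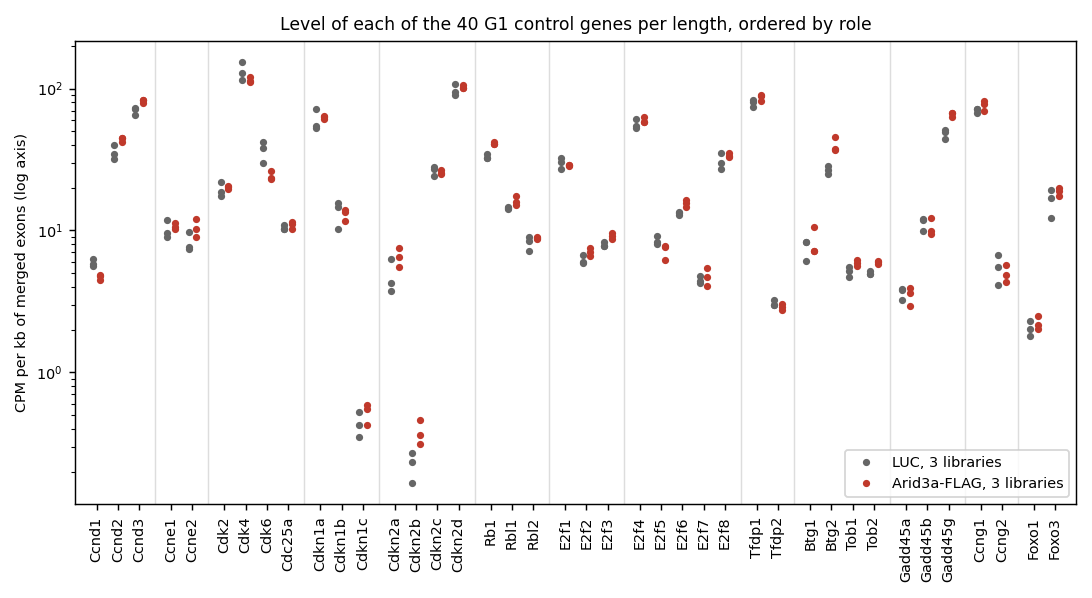
CPM per kb of merged exons on a log axis for the 40 G1 genes, ordered by role, with a point for each of the 3 LUC and 3 Arid3a-FLAG libraries. Cdk4, Cdkn2d, Tfdp1 and Ccnd3 stand highest and Cdkn1c and Cdkn2b lowest, and the libraries of both groups lie close together in most genes.

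The D cyclins, the subunits that respond to growth factors, did not move one way. Ccnd1 stood at 27.2, 26.6 and 29.7 CPM in LUC libraries 1 to 3, against 21.2, 22.3 and 22.9 CPM in Arid3a-FLAG libraries 1 to 3, or -0.33 as log2 fold change (SE 0.10, 95% interval -0.56 to -0.10, edgeR adjusted p = 0.0837). Ccnd2 stood at 299.8, 326.1 and 379.3 CPM under LUC against 395.1, 420.5 and 423.6 CPM under Arid3a-FLAG, with 0.30 (SE 0.11, interval 0.07 to 0.54, adjusted p = 0.109). In all 3 D cyclins the libraries of the groups were fully apart, Ccnd1 lower and Ccnd2 and Ccnd3 higher with Arid3a-FLAG. Over all tested genes the groups were apart in 33.1%. Ccnd3 stood at 571.2, 634.6 and 641.5 CPM under LUC against 693.5, 732.4 and 726.0 CPM under Arid3a-FLAG, with 0.22 (SE 0.10, interval 0.01 to 0.43, adjusted p = 0.183). None of them passed. Without LUC library 2 all 3 did, with edgeR adjusted p of 0.0333, 0.0434 and 0.0263, and Ccnd2 also did without LUC library 3 (0.0327). Those fits called 16.4% and 7.57% of all genes. Per length, Ccnd3 made up 62.9% ± 1.63 of D cyclin transcripts with LUC and 62.7% ± 0.294 with Arid3a-FLAG (SD, n = 3). Ccnd2 made up 31.8% ± 1.61 and 33.7% ± 0.250. The small share of Ccnd1 was 5.61, 5.01 and 5.27% in the LUC libraries against 3.59, 3.57 and 3.67% in the Arid3a-FLAG libraries, with no overlap between the groups.

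Of the E cyclins, which drive Cdk2 at the entry into S phase, neither passed. Ccne2 stood at 26.7, 34.0 and 25.7 CPM under LUC against 42.4, 35.7 and 31.6 CPM under Arid3a-FLAG, or 0.34 as log2 fold change (SE 0.14, edgeR adjusted p = 0.162, 0.0182 without LUC library 2). The groups overlapped, since LUC library 2 lay above Arid3a-FLAG library 3. Ccne1 had 27.0 ± 4.03 CPM under LUC against 28.5 ± 1.56 CPM under Arid3a-FLAG (SD, n = 3), a log2 fold change of 0.08 (95% interval -0.20 to 0.35). Ccne2 made up 44.5 to 45.0% of E cyclin transcripts per length in the LUC libraries against 47.0 to 53.4% in the Arid3a-FLAG libraries.

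Cdk6, the D cyclin partner best known in blood cells, fell. The gene lies on the plus strand at chr5:3341485-3531008 (GRCm38, GENCODE M21). It stood at 587.6, 417.9 and 534.3 CPM in the LUC libraries, against 328.3, 370.3 and 322.1 CPM in the Arid3a-FLAG libraries, with LUC library 2 lowest in its group and all LUC libraries above all Arid3a-FLAG libraries. The log2 fold change was -0.59 (SE 0.13, 95% interval -0.88 to -0.31, edgeR adjusted p = 0.0231), or 0.663 times the LUC level. DESeq2 and limma-voom also called it (adjusted p = 0.000619 and 0.0241). The call was kept without LUC library 2 and lost without any other library, with adjusted p of 0.0907 (LUC library 1), 0.0583 (LUC library 3), 0.127, 0.0682 and 0.0910 (Arid3a-FLAG libraries 1, 2 and 3), while the log2 fold change stayed between -0.71 and -0.46. Beside it, markers of mast cells and basophils and of stem and progenitor cells gave 3 falls in 8 and 3 falls in 7 tested genes. The lymphoid list gave 3 falls in 3, and the neutrophil and monocyte list 2 falls and 1 rise in 7. In the erythroid list there were 3 rises and 2 falls in 10, and in the endothelial and stromal list 1 of each in 5. Megakaryocyte markers gave 4 rises in 12, and the 1 tested hepatocyte marker did not pass. Of all tested genes 3.43% were higher and 3.87% lower. The part of these lists in the level of Cdk6 was not tested.

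The other kinase genes did not pass. Cdk4, the second D cyclin partner, had 431.2 ± 66.3 CPM under LUC against 374.0 ± 13.8 CPM under Arid3a-FLAG (SD, n = 3; log2 fold change -0.21, 95% interval -0.46 to 0.05), and LUC library 2 was highest, at 502.2 CPM. Per length Cdk4 exceeded Cdk6 in both groups, with means of 132.7 against 36.7 CPM per kb with LUC and 115.1 against 24.3 with Arid3a-FLAG. Cdk2 (0.06, interval -0.16 to 0.27) and Cdc25a, the phosphatase that removes inhibitory phosphates from Cdk2 (0.06, interval -0.13 to 0.25), lay near 0.

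**Figure D3:**
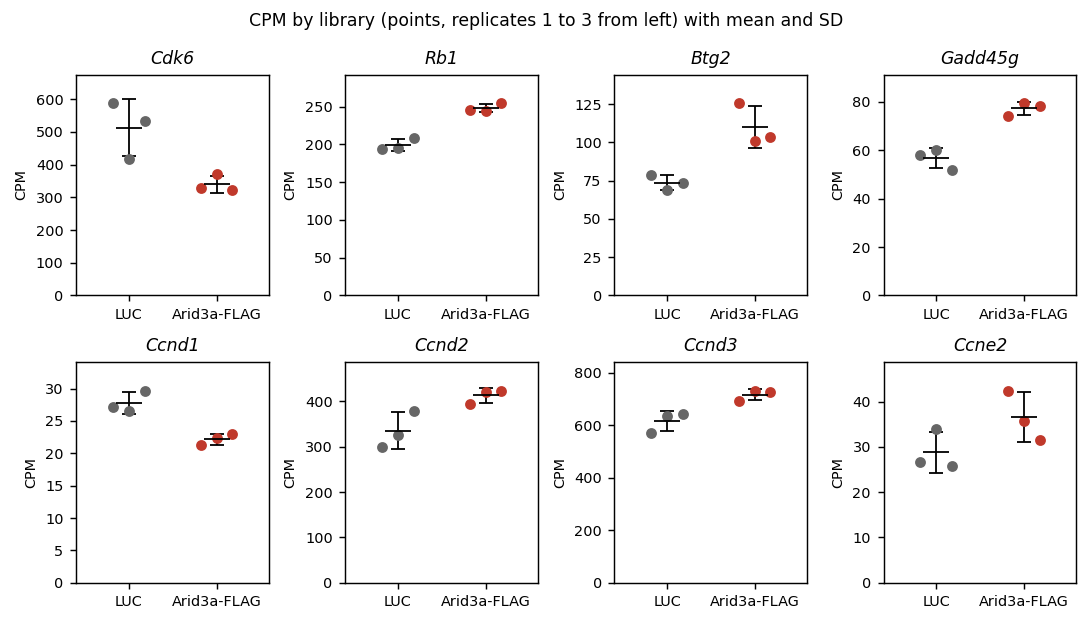
CPM of Cdk6, Rb1, Btg2, Gadd45g, Ccnd1, Ccnd2, Ccnd3 and Ccne2 in each library (points, replicates 1 to 3 from left), with the mean and SD of each group, on axes that start at 0. The genes shown are a chosen set: those past the threshold, the D cyclins and Ccne2. The points of the groups are fully apart in every panel but that of Ccne2. Groups were apart in 33.3% of the tested G1 genes and 33.1% of all tested genes.

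No inhibitor of the kinases passed in edgeR, and none of the 6 tested did at an unadjusted p under 0.05, in DESeq2 or in limma-voom. Of all tested genes 25.6% had an unadjusted p under 0.05 in edgeR. Cdkn1a, which encodes p21, the inhibitor induced by p53, stood at 188.7, 193.4 and 254.0 CPM under LUC against 217.1, 228.7 and 224.3 CPM under Arid3a-FLAG. Its log2 fold change was 0.07 (95% interval -0.19 to 0.34), and the Arid3a-FLAG libraries lay inside the range of the LUC libraries. Cdkn1b, which encodes p27, had 61.4 ± 13.04 and 59.3 ± 5.49 CPM (SD, n = 3), with LUC library 2 lowest at 46.5 CPM. The imprinted Cdkn1c had 11 to 20 counts a library and an interval from -0.50 to 0.98, too wide at this depth to show a difference of up to about that size. Among the INK4 genes, Cdkn2d (p19) had 153.9 ± 14.4 and 162.1 ± 4.195 CPM and Cdkn2c (p18) 70.7 ± 5.26 and 68.8 ± 2.17 CPM, with log2 fold changes of 0.07 and -0.04. Cdkn2a stood lower, at 5.03, 7.32 and 4.37 CPM under LUC against 7.64, 8.77 and 6.47 CPM under Arid3a-FLAG (0.46, interval -0.03 to 0.95, edgeR adjusted p = 0.220). It passed without LUC library 2 (adjusted p = 0.0285). Gene counts do not tell the 2 products of Cdkn2a, INK4A and ARF, apart. Cdkn2b stood at 0.312 ± 0.0745 CPM under LUC against 0.525 ± 0.104 CPM under Arid3a-FLAG and was not tested. Per length, Cdkn2d (100.4 CPM per kb over all libraries) was followed by Cdkn1a (61.3), Cdkn2c (26.0) and Cdkn1b (13.3), the same order with the longest transcript.

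Rb1, which encodes the retinoblastoma protein, rose. It lies on the minus strand at chr14:73183673-73325822. It stood at 193.5, 195.6 and 208.7 CPM under LUC against 245.9, 244.6 and 254.3 CPM under Arid3a-FLAG, 2 narrow groups with a gap between them. The log2 fold change was 0.32 (SE 0.08, 95% interval 0.13 to 0.50, edgeR adjusted p = 0.0466). DESeq2 and limma-voom called it (0.00612 and 0.0417). Upper quartile scaling did not (0.0517), and the call was lost without LUC library 1 (0.102) and without each Arid3a-FLAG library (0.170, 0.189 and 0.173). Of its exon length, 8.11% overlaps Rcbtb2 and 6.78% Lpar6 on the opposite strand. Its relatives, which pair mainly with the repressor E2Fs, lay in the same direction and did not pass: Rbl1 (p107) at 0.17 (interval -0.02 to 0.36), with the groups apart, and Rbl2 (p130) at 0.11 (interval -0.11 to 0.34). Rb1 made up 59.5% ± 0.770 of pocket protein transcripts per length with LUC and 62.2% ± 1.38 with Arid3a-FLAG.

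None of the 8 E2F genes passed in edgeR, DESeq2 or limma-voom, and at an unadjusted p under 0.05 only E2f3 and E2f6 did, both higher. That is 33.3% of the activators and 20% of the repressors, beside 25.6% of all tested genes. Of the activators, E2f1 had 94.5 ± 8.49 CPM under LUC against 90.8 ± 0.807 CPM under Arid3a-FLAG (log2 fold change -0.06), and E2f2 had 30.3 ± 2.22 and 34.5 ± 2.32 CPM (0.19). E2f3 stood at 44.7, 42.4 and 41.9 CPM under LUC against 49.5, 52.5 and 47.7 CPM under Arid3a-FLAG, fully apart, or 0.21 as log2 fold change (95% interval 0.01 to 0.41, adjusted p = 0.173). Its counts join the E2f3a and E2f3b forms. Among the repressors, E2f6, which acts without pocket proteins, stood at 75.8, 72.3 and 76.2 CPM under LUC against 92.6, 87.9 and 82.5 CPM under Arid3a-FLAG (0.23, interval 0.04 to 0.42, adjusted p = 0.128). E2f5 lay the other way, at 14.9, 16.3 and 14.2 against 13.9, 11.0 and 13.6 CPM (-0.23, interval -0.54 to 0.07), also without overlap. E2f4, the main partner of Rbl1 and Rbl2, had 0.09, and the atypical repressors E2f7 and E2f8, which bind DNA without a DP partner, had 0.08 and 0.14, with intervals that included 0. Per length E2f4 was the most abundant E2F, with 35.7% ± 2.60 of E2F transcripts with LUC and 35.9% ± 1.13 with Arid3a-FLAG (SD, n = 3). The DP partners Tfdp1 (0.14) and Tfdp2 (-0.08) did not pass, and Tfdp1 was the more abundant, at 83.4 against 2.97 CPM per kb.

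Several of these genes carry the letters of an E2F site at their own start. RefSeq promoter windows on GRCm38.p6, from 250 bases before to 50 bases after a start, were given for 33 of the 40 genes (41 windows). An E2F-type motif, TTTCCCGC, TTTCGCGC, TTTGCCGC or TTTGGCGC on either strand, was in 9 of these windows, of 8 genes (22.0%), and in 2.26% of all 32851 windows. These sites are shown because they lie in genes that act in the E2F pathway, and the genes follow from the search. Each stretch is written on the strand where the motif reads as spelled, 5′ to 3′, with the motif in capitals.

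Cdc25a (chr9:109875502-109875529, plus strand): gtgaattccgTTTGGCGCcaactaggaa

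Cdk2 (chr10:128705174-128705201, plus strand): gctgcacaacTTTCCCGCagttcctggt

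Cdkn2a (chr4:89294701-89294728, minus strand): tctgggaagcTTTCCCGCgcgactgggg

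E2f2 (chr4:136172303-136172323, plus strand): cggcatatagTTTGGCGCtaa

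E2f3 (chr13:29986057-29986084, plus strand): gaaactcagaTTTCCCGCcggcttttca

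E2f7 (chr10:110745231-110745258, minus strand): cgcgggagcgTTTCCCGCggggacgcgg

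Rbl1 (chr2:157204535-157204562, minus strand): agaaggcgatTTTCGCGCgctttgtcgc

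Tfdp1 (chr8:13338698-13338725, minus strand): ctgcgcgcctTTTCGCGCcttcggcgcc

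The Cdkn2a match lies at the upstream start of that gene, from which the ARF transcript arises, and the window at its other start held none. The matches begin 11 bases before the start in E2f3, 18 in Rbl1, 43 in Tfdp1, 67 in Cdc25a, 99 in Cdkn2a, 140 in Cdk2 and 198 in E2f7, and 40 bases after it in E2f2, counted on the strand of the gene. All 8 genes had a log2 fold change above 0, with a median of 0.16, none passed the threshold, and the groups were apart in 2 (25%), Rbl1 and E2f3. Of all tested genes 45.3% lay above 0, 7.29% passed and 33.1% had groups apart. The 39 tested G1 genes, from which these 8 are drawn, had 71.8% above 0 and a median of 0.12. The letters TTTGAA of the CHR element, which recruits the MuvB complex, were in 12.2% of the members' windows and 17.9% of all windows, and the ARID-type letters ATTAAA in 4.88% and 13.9%. These are matches of letters and show no binding.

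The antiproliferative genes of the BTG/TOB family bind deadenylases, which shorten messenger RNA tails. Btg2, a p53-inducible member at chr1:134075170-134079120 on the minus strand, rose. It stood at 78.7, 68.6 and 73.6 CPM under LUC against 125.5, 100.9 and 103.2 CPM under Arid3a-FLAG, where library 1 was highest. The log2 fold change was 0.58 (SE 0.11, 95% interval 0.34 to 0.81, edgeR adjusted p = 0.0117), or 1.49 times the LUC level, and the call was lost only without Arid3a-FLAG library 1 (0.0721). Tob2 stood at 32.6, 33.0 and 34.7 CPM under LUC against 40.04, 38.6 and 40.3 CPM under Arid3a-FLAG (0.25, SE 0.09, interval 0.04 to 0.45, adjusted p = 0.127). Neither it nor Tob1 (0.20, interval -0.10 to 0.49) passed, although the groups were apart in both, as they were in 33.1% of all tested genes. Btg1, the nearest relative of Btg2, overlapped between the groups, at 31.9 to 43.9 and 37.9 to 55.6 CPM (0.14, interval -0.24 to 0.52).

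Of the GADD45 genes, small stress-response proteins that activate p38 and JNK signalling, Gadd45g, at chr13:51846678-51848468 on the plus strand, rose and the other two did not pass. Gadd45g stood at 57.8, 60.2 and 52.0 CPM under LUC against 74.2, 79.4 and 78.3 CPM under Arid3a-FLAG, with all Arid3a-FLAG libraries above all LUC libraries. The log2 fold change was 0.45 (SE 0.09, 95% interval 0.25 to 0.65, edgeR adjusted p = 0.0179), and the call was lost without Arid3a-FLAG library 1, 2 or 3 (0.0767, 0.107 and 0.0689). Gadd45a stood at 5.67 to 6.82 CPM under LUC against 5.17 to 6.89 CPM under Arid3a-FLAG (-0.06, interval -0.46 to 0.35), and Gadd45b at 15.7 to 19.0 and 14.9 to 19.4 CPM (-0.10, interval -0.41 to 0.22). Beside the rises of Btg2, Gadd45g and Rb1, the megakaryocyte list gave 4 rises in 12 tested markers and the erythroid list 3 rises and 2 falls in 10. The neutrophil and monocyte list gave 1 rise and 2 falls in 7, and the endothelial and stromal list 1 of each in 5. The mast and basophil, stem and progenitor and lymphoid lists gave falls only. Of all tested genes 3.43% were higher and 3.87% lower. The part of these lists in the rises of Btg2, Gadd45g and Rb1 was not tested.

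The cyclin G and FOXO genes did not pass. Ccng1, a p53 target, had 246.8 ± 8.23 CPM under LUC against 269.1 ± 21.2 CPM under Arid3a-FLAG (log2 fold change 0.12, 95% interval -0.08 to 0.33). Ccng2, a FOXO target that rises in quiescent cells, had 29.8 ± 7.15 and 27.0 ± 3.87 CPM (-0.15, interval -0.53 to 0.23). Foxo3, a factor of quiescence in blood stem cells, stood at 127.6, 92.8 and 146.1 CPM under LUC against 143.2, 131.5 and 150.5 CPM under Arid3a-FLAG (0.21, interval -0.11 to 0.53), where LUC library 2 was lowest. Foxo1 was at 15.7 to 20.02 and 17.5 to 21.7 CPM (0.12).

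RefSeq windows existed for 3 of the 4 genes that passed. The 150 bases before each start are shown because these genes differ at the position of the letters TATAAA, a core promoter element searched after the sequences were seen. Capitals mark TATAAA, which 13.6% of all windows and 12.2% of the members' windows hold on either strand. Those windows are 300 bases long, and the stretches shown are 150.

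Btg2 (chr1:134079156-134079305, minus strand): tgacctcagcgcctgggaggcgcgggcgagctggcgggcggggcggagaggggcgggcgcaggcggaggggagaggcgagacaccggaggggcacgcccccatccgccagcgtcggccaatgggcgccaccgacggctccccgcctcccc

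Cdk6 (chr5:3343743-3343892, plus strand): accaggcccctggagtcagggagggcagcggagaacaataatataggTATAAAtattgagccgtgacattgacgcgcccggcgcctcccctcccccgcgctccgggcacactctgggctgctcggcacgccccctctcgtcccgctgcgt

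Gadd45g (chr13:51846525-51846674, plus strand): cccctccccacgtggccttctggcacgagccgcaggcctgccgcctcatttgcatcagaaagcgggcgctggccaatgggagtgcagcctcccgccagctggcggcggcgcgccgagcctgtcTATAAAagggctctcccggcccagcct

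TATAAA begins 27 bases before the start in Gadd45g and 103 bases before it in Cdk6, and it was not in the Btg2 stretch. The Cdk6 stretch lies inside the GENCODE span of that gene, so the RefSeq start used is not the upstream end of the span. A match of these letters does not show that they act as a core promoter element. G and C made up 80.0% of the stretch in Btg2, 70% in Gadd45g and 65.3% in Cdk6, beside a median of 54.0% over all windows. None of the 3 windows held an E2F-type, CHR or ARID-type match.

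Of 4 further lists of genes that G1 control acts on or works with, none held a gene past the threshold in edgeR, beside 7.29% of all tested genes. An unadjusted p under 0.05 was found for 10.4% of the E2F targets, 22.7% of the CDK control genes, 14.3% of the MuvB list and 30% of the mitotic genes, beside 25.6% of all. Of all tested genes, limma-voom called 7.42% and DESeq2 11.5%. The edgeR fits without LUC library 2 and without LUC library 3 called 16.4% and 7.57% of all genes. Of 48 E2F target genes of DNA replication, drawn up by name, none passed in edgeR, and the median log2 fold change was -0.04. Unadjusted p was under 0.05 for 1 higher and 4 lower genes, limma-voom called 0 and DESeq2 1. The nearest to the threshold were the thymidine kinase Tk1, with 141.0 ± 17.4 CPM under LUC against 110.1 ± 1.48 CPM under Arid3a-FLAG (log2 fold change -0.36, adjusted p = 0.0587, 0.0293 and 0.0313 when LUC library 2 or 3 was left out), and the chromatin assembly subunit Chaf1b (-0.29, adjusted p = 0.0946). Without LUC library 2, 3 of the list were higher and 1 lower, and without LUC library 3, 2 were lower. Of 22 tested genes of CDK control outside the 40, none passed (median -0.20). Unadjusted p was under 0.05 for 0 higher and 5 lower genes, limma-voom called 0 and DESeq2 1, and without LUC library 2 edgeR called 1 higher and 2 lower. Mnat1, a subunit of the CDK-activating kinase, had -0.42 (adjusted p = 0.0694) and Pkmyt1, a kinase that inhibits Cdk1, -0.31 (0.0780, 0.0424 without LUC library 2). Skp2, the F-box protein that targets Cdkn1b for destruction, was listed at 0 counts in all 6 libraries, and whether it was not expressed or not counted cannot be told from the table. Of 14 MuvB and chromatin partners of pocket proteins none passed in edgeR, DESeq2 or limma-voom, and 1 higher and 1 lower had an unadjusted p under 0.05 (median -0.01). The methyltransferase Suv39h1 (-0.22) and the MuvB subunit Lin54 (0.26) were nearest to the threshold. Of 20 mitotic genes none passed (median -0.03), with log2 fold changes from -0.34 to 0.91. Unadjusted p was under 0.05 for 2 higher and 4 lower genes, limma-voom called 0 and DESeq2 1, and without LUC library 2 edgeR called 2 higher and 1 lower. The mitotic cyclin Ccnb2 had -0.34 and the kinesin Kif20a 0.26, and both passed without LUC library 2 (adjusted p = 0.0488 and 0.0208). Kif20a shares 29.3% of its exon length with Cdc23.

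Targets of p53 and of the FOXO factors, which lie upstream of the inhibitors, were called at 4.17% and 23.1%, beside 7.29% of all tested genes. Of 24 p53 target genes 1 fell and 23 did not pass (median -0.07). Ddb2, a DNA repair factor, fell from 7.10 ± 0.316 to 4.45 ± 0.469 CPM (SD, n = 3; log2 fold change -0.67, edgeR adjusted p = 0.0425). That call was lost in 5 of 6 fits with 1 library left out, with adjusted p up to 0.170, and the gene shares 23.8% of its exon length with Acp2. It held without LUC library 2. Of 13 tested FOXO target genes, 1 rose and 2 fell (median -0.08). DESeq2 called 5 of them and limma-voom 3, beside 11.5% and 7.42% of all genes. In edgeR 7 (53.8%) had an unadjusted p under 0.05, beside 25.6% of all genes. Irs2, an adaptor of the insulin receptor, rose from 50.6 ± 11.6 to 95.9 ± 2.83 CPM (0.92, adjusted p = 0.00531, at most 0.0379 with 1 library left out). Txnip, an inhibitor of thioredoxin and glucose uptake, fell from 143.3 ± 12.7 to 89.4 ± 13.5 CPM (-0.68, adjusted p = 0.00868), and was lost without Arid3a-FLAG library 1 (0.0663) or 2 (0.0583). Sesn3, a stress-induced regulator of growth signalling, fell by 0.53 on the log2 scale (adjusted p = 0.0439), a call lost in 4 of 6 fits with 1 library left out, all but those without LUC library 2 or Arid3a-FLAG library 3 (adjusted p up to 0.191). Without LUC library 2 the FOXO list gave 2 rises and 6 falls, in a fit that called 16.4% of all genes.

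**Figure D4:**
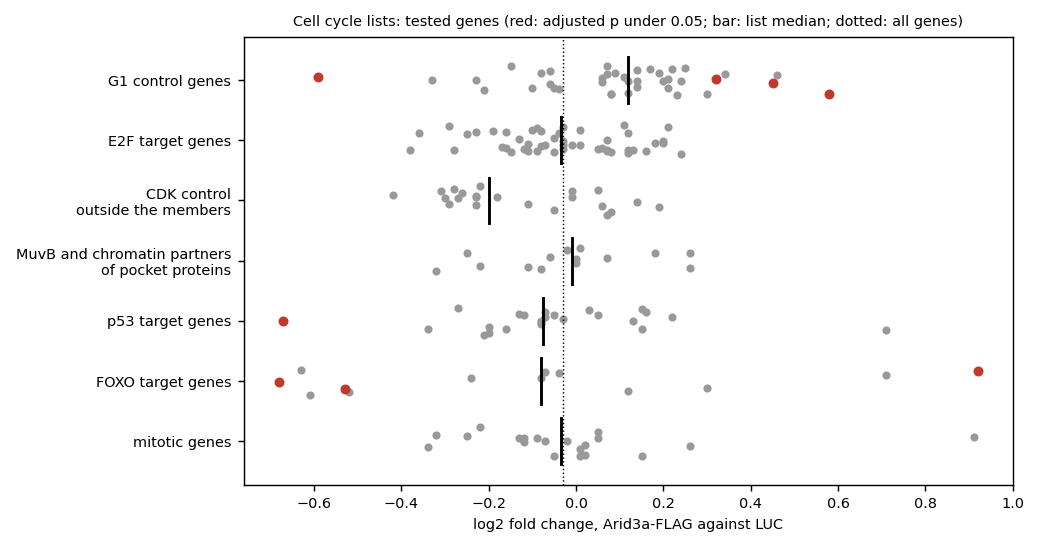
Log2 fold change of each tested gene (Arid3a-FLAG against LUC) in the G1 genes and in 6 further lists, with the list median as a bar and the median of all tested genes as a dotted line. The G1 genes have a median of 0.12 with Cdk6, Rb1, Gadd45g and Btg2 past the threshold, and the E2F target, CDK control, MuvB and mitotic lists hold no gene past it.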

How the data were processed

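RNA was sequenced from 6 libraries of fetal liver cells, 3 per group. The authors deposited whole-number read counts per gene with no normalization, made with fastp, HISAT2 2.0.5 and featureCounts on mm10, per the submitters' processing notes; of settings, annotation release and strand use nothing is stated in these sources. The construct's row was kept out of library sizes and tests. Symbols, positions and exon lengths came from GENCODE M21 on GRCm38. In R 4.3.3, edgeR 4.0.16 tested genes kept by filterByExpr after TMM scaling with the quasi-likelihood F test, group as the only term, two-sided, Benjamini-Hochberg adjusted over all 13631 tested genes, threshold 0.05. Standard errors were derived from the F statistic and the fold change, and confidence intervals are 95% intervals. Alternatives used limma 3.58.1 and DESeq2 1.42.0, other scalings and filters, a replicate block and each library left out. The test was checked on simulated counts.

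The 40 genes and the gene lists were drawn up by name with earlier results of these data known. All 40 are named. Full values are given for those past the threshold and, of the others, those with the smallest p or with a call in an alternative. From each further list up to 3 genes past the threshold in each direction are named or, with none, the 2 with the smallest p.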

Additional observations from a re-analysis of the deposited data

How the results depend on the processing

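With 3 libraries a group, the 95% intervals of the G1 genes set what size of difference could be seen, and a gene that did not pass may differ by up to the ends of its interval. Over all genes, 467 higher and 527 lower calls became 869 and 1076 with no filter on low counts and 771 and 790 with DESeq2. With 1 library left out they ran from 115 to 1191 higher and from 118 to 1095 lower, with the lowest counts without Arid3a-FLAG library 1 and the highest without LUC library 2. The G1 genes gave 0 to 7 higher and 0 to 2 lower calls with 1 library left out, and in the other alternatives 2 to 4 higher and 1 lower, where Ccnd2 was added with no filter and Rb1 lost under upper quartile scaling.

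The counts gave no sign that the replicate numbers pair the libraries. Same-numbered libraries had correlations of their deviations of -0.103, -0.115 and 0.125, other pairs -0.176 to 0.208. With 3 libraries a group these values cannot show whether same-numbered libraries shared a culture or batch. With the replicate block 410 genes were higher and 530 lower, 2 G1 genes higher and 1 lower (Rb1 at adjusted p = 0.0947), and the p53 target list had 0 lower and the FOXO target list 4 lower. Some list counts moved, as did the share of all tested genes called. That share was 7.39% with upper quartile scaling, 8.13% with no filter and 11.5% with DESeq2. It was 8.18% with the filter of 5 CPM in 3 libraries, 7.45% without the 20 most abundant genes and 6.9% with the replicate block. With 1 library left out it ran from 1.66% to 16.4%. E2F targets gave 1 lower with upper quartile scaling, 2 with no filter and 1 with DESeq2, and with 1 library left out 0 to 3 higher and 0 to 2 lower. CDK control genes gave 1 lower with no filter and 1 with DESeq2, and 0 to 1 higher and 0 to 2 lower with 1 library left out. The p53 targets gave 2 lower with no filter and 0 to 1 with 1 library left out. The FOXO targets gave 2 higher with no filter and with DESeq2, 4 lower with no filter, 1 lower with the filter of 5 CPM in 3 libraries and 1 lower without the 20 most abundant genes, and with 1 library left out 1 to 2 higher and 0 to 6 lower. Mitotic genes gave 1 higher and 1 lower with no filter, 1 lower with DESeq2, and 0 to 2 higher and 0 to 1 lower with 1 library left out. For these the cause was not tested.

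With the longest transcript as length, Ccnd1, Ccnd2 and Ccnd3 made up 3.38, 24.0 and 72.6% of D cyclin transcripts under LUC and 2.31, 25.4 and 72.3% under Arid3a-FLAG. Ccne2 then made up 41.5% of E cyclins under LUC, Rb1 58.6% of pocket proteins under LUC, and E2f4 33.7% of E2Fs under Arid3a-FLAG. With 1 library left out, the log2 fold change turned sign in some fits, with no call in either direction. Cdkn1b ran from -0.20 to 0.08, Cdkn2c from -0.08 to 0.02, E2f1 from -0.10 to 0.03, E2f7 from -0.03 to 0.18, Btg1 from -0.07 to 0.24, Gadd45a from -0.15 to 0.06 and Ccng2 from -0.29 to 0.06. Of 713 pairs of a named gene and an alternative, 654 kept direction and side of the threshold, 29 lost a call, 19 gained one and 11 turned sign.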
